A study of Mus musculus with 4 samples.

Results

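The genes of the netrin receptors and of the netrin-G proteins were followed through adult neurogenesis in the mouse dentate gyrus, the hippocampal region that keeps producing granule cells after birth. They are 8 genes chosen by name, with earlier results of these data known: Dcc, Neo1, Unc5a, Unc5b, Unc5c, Unc5d, Ntng1 and Ntng2. All 8 were found among the 45706 features of the count files, and 7 passed the low-count filter and were tested, while Unc5b did not. Nuclei came from male and female mice on a C57Bl/6J background, whose age is given as 6 to 8 weeks. That age is not stated for the time of collection, which came 1 to 8 weeks after tamoxifen. The mice carried an inducible CreERT2 allele and the CAGfloxStop-Sun1/sfGFP reporter. In these mice tamoxifen switches on a green protein of the nuclear envelope in cells that use the Cre allele, and the label passes to their progeny. Mice of every group carried both alleles and received tamoxifen, so no group lacked either, and the sort for green nuclei limits the sample to cells that used the Cre allele and their descendants. Libraries w1, w2, w4 and w8 hold green nuclei sorted 1, 2, 4 and 8 weeks after tamoxifen, each from 4 pooled left dentate gyri. Each time is therefore 1 library, and time, age of the mice at collection and library cannot be told apart. The comparisons run between the deposited clusters, with library as a term of the model. The authors formed those clusters from the expression of these same nuclei. The p-values therefore compare groups made to differ in expression, and they do not test the grouping.

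Netrins are secreted guidance proteins. DCC, encoded by Dcc, is the receptor through which netrin-1 attracts growing axons, and neogenin, encoded by Neo1, is its close relative, which also binds the repulsive guidance molecules. The UNC5 receptors turn the response to netrin into repulsion, alone or together with DCC, and they also bind the FLRT adhesion proteins. Netrin-G1 and netrin-G2, encoded by Ntng1 and Ntng2, resemble netrins in sequence but are lipid-anchored on the axon, do not bind DCC or UNC5, and pair across the synapse with the netrin-G ligands NGL-1 (Lrrc4c) and NGL-2 (Lrrc4).

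The files held 14367 kept nuclei in 13 clusters, with 2867 to 4243 nuclei and 13227971 to 28595331 unique molecular identifiers (UMIs, counted RNA molecules) per library. The median nucleus held 4369 UMIs in w1 and 7703.5 in w8, the lowest and highest medians. Between 1 and 6 cell barcodes were shared by any pair of libraries, 22 in all. The clusters run from radial glia-like stem cells (RGL) through neural progenitor cells (NPC), neuroblasts (NB1, NB2) and immature granule cells (GCimm1, GCimm2). Young granule cells (GCyoung) and mature granule cells (GCmat1, GCmat2) follow. Astrocytes (Astro) and 3 more clusters (Peri, Oligo, OPC) lie apart from this path, and in the study's scheme RGL generate astrocytes. The study classed GCmat2 as neurons of w4 to w8 that had probably been active before isolation, and left it out of its pseudo-time ordering. Steps to GCmat2 are therefore not read as maturation. Levels are UMIs per 1000000 UMIs of the nuclei summed (CPM). Marker lists followed the labels in part. The astrocyte list summed to 9994 CPM in Astro and 3732 in RGL, and the progenitor list to 1059 in NPC and at most 37.3 elsewhere. The neuroblast list was highest in NB2 (1794) and NB1 (1366). The list of immature granule cells was highest in GCimm1 (3768), but NB2 (3268) was above GCimm2 (2736). The list of mature granule cells was higher in GCyoung (1730) than in GCmat1 (1464) or GCmat2 (1304). The oligodendrocyte genes Mag and Mog stood at 883 and 1999 in Oligo and at most 5.97 and 21.2 elsewhere. In Peri the pericyte list summed to 414 CPM, the highest of any cluster, from Tbx18 at 313 and Pdgfrb at 101, while Rgs5 and Higd1b were at 0 there and at most 1.64 and 0.227 in any cluster. The vascular leptomeningeal list summed to 4978 in Peri, and the cluster is called here by its label only. Sums of at least 10 nuclei of 1 library and 1 cluster gave 29 values per gene for the model, and 13513 genes were tested. Both clusters of a comparison were held by w1, w2 and w4 up to GCimm1, by w2 and w4 from GCimm1 to GCimm2, and by w4 and w8 after that. Sums of libraries with only 1 of the 2 clusters entered the same fit. A fold of the model can therefore lie outside the ratios within single libraries. Intervals are 95% and cover counting error only. The p-values rest on the scatter of sums left after the cluster and library terms, shared over all clusters of the fit.

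Promoter sequence is shown for 2 tested genes, those with a window of 250 bases before the RefSeq start that holds no annotated exon. Dcc and Unc5d were not looked at. The 2 genes shown are Neo1, highest in neuroblasts, and Unc5a, highest in GCmat2 and higher in GCyoung than in GCmat1. Capitals mark GGGCGG on either strand, the core of the GC box.
Neo1: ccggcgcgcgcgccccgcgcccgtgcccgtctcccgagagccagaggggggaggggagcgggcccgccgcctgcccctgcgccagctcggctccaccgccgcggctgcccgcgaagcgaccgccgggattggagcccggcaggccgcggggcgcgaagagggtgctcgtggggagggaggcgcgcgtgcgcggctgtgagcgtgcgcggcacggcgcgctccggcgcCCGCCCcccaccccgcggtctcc
Unc5a: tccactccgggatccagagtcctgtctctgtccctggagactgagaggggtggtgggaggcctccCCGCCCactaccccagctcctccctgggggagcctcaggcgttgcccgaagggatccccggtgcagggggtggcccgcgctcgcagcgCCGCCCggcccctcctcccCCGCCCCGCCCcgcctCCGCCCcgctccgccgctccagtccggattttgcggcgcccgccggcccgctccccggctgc
These are chr9:59036442-59036691 on the minus strand and chr13:54949161-54949410 on the plus strand (RefSeq, GRCm38.p6), printed 5′ to 3′. The motif GGGCGG occurred 1 time before Neo1 and 5 times before Unc5a, with overlapping matches counted, and 32.7% of 32851 promoters of this length held it. The E-box CANNTG, the letters bound by proneural factors, occurred in neither, against 66.2% of promoters. CG occurred 45 times before Neo1 and 25 times before Unc5a, against a median of 6. These matches describe letters in the window and were not tied to the expression values.

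On GRCm38 the genes lie apart from each other. Dcc (ENSMUSG00000060534) spans chr18:71253634-72351069 on the minus strand, 1097 kb, and Neo1 (ENSMUSG00000032340) spans chr9:58874687-59036441 on the minus strand. Unc5a (ENSMUSG00000025876) lies at chr13:54949411-55006018 on the plus strand, Unc5b (ENSMUSG00000020099) at chr10:60762593-60831581 on the minus strand, Unc5c (ENSMUSG00000059921) at chr3:141465216-141834924 on the plus strand, and Unc5d (ENSMUSG00000063626) at chr8:28646717-29219636 on the minus strand. Ntng1 (ENSMUSG00000059857) covers chr3:109780040-110144011 and Ntng2 (ENSMUSG00000035513) chr2:29194541-29253005, both on the minus strand. The counts join exonic and intronic UMIs, so a level is a level of nuclear RNA over the whole span. In the annotation 3 other genes on the same strand overlap Unc5d, and 1 each overlaps Unc5b, Unc5c and Ntng2, where reads of the 2 genes are uncertain, and Dcc overlaps none.

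The 8 genes took different courses along the path, shown in the plot of levels by cluster and library. Dcc rose steeply at the progenitor stage and was highest in GCimm1, Neo1 was highest in NB2, and Unc5d peaked in NB2 and rose again in mature granule cells. Unc5c and Ntng1 were low in GCimm1 and GCimm2 and highest in GCmat2, Ntng2 was highest in NPC, and Unc5a was highest in GCmat2. Genes are set side by side here per kb of span, because intronic UMIs are counted. UMIs of 3′ sequencing need not scale with span, so the order of genes depends on this choice. Without scaling, NB1 ranged from 2.02 CPM for Unc5b to 6581 for Dcc. GCmat2 ranged from 75.6 for Unc5a to 3244 for Dcc among the genes detected there. In NB1, CPM per kb stood at 5.997 for Dcc, 5.73 for Neo1, 3.89 for Ntng2, 0.797 for Unc5d, 0.357 for Unc5a, 0.0531 for Unc5c, 0.0293 for Unc5b and 0.0237 for Ntng1. In GCmat2 the values per kb of the 7 genes detected there lay closer together, from 0.947 for Neo1 to 2.96 for Dcc, with Ntng1 at 1.95, Ntng2 at 1.86, Unc5c at 1.84, Unc5a at 1.34 and Unc5d at 0.954.

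**Figure D1:**
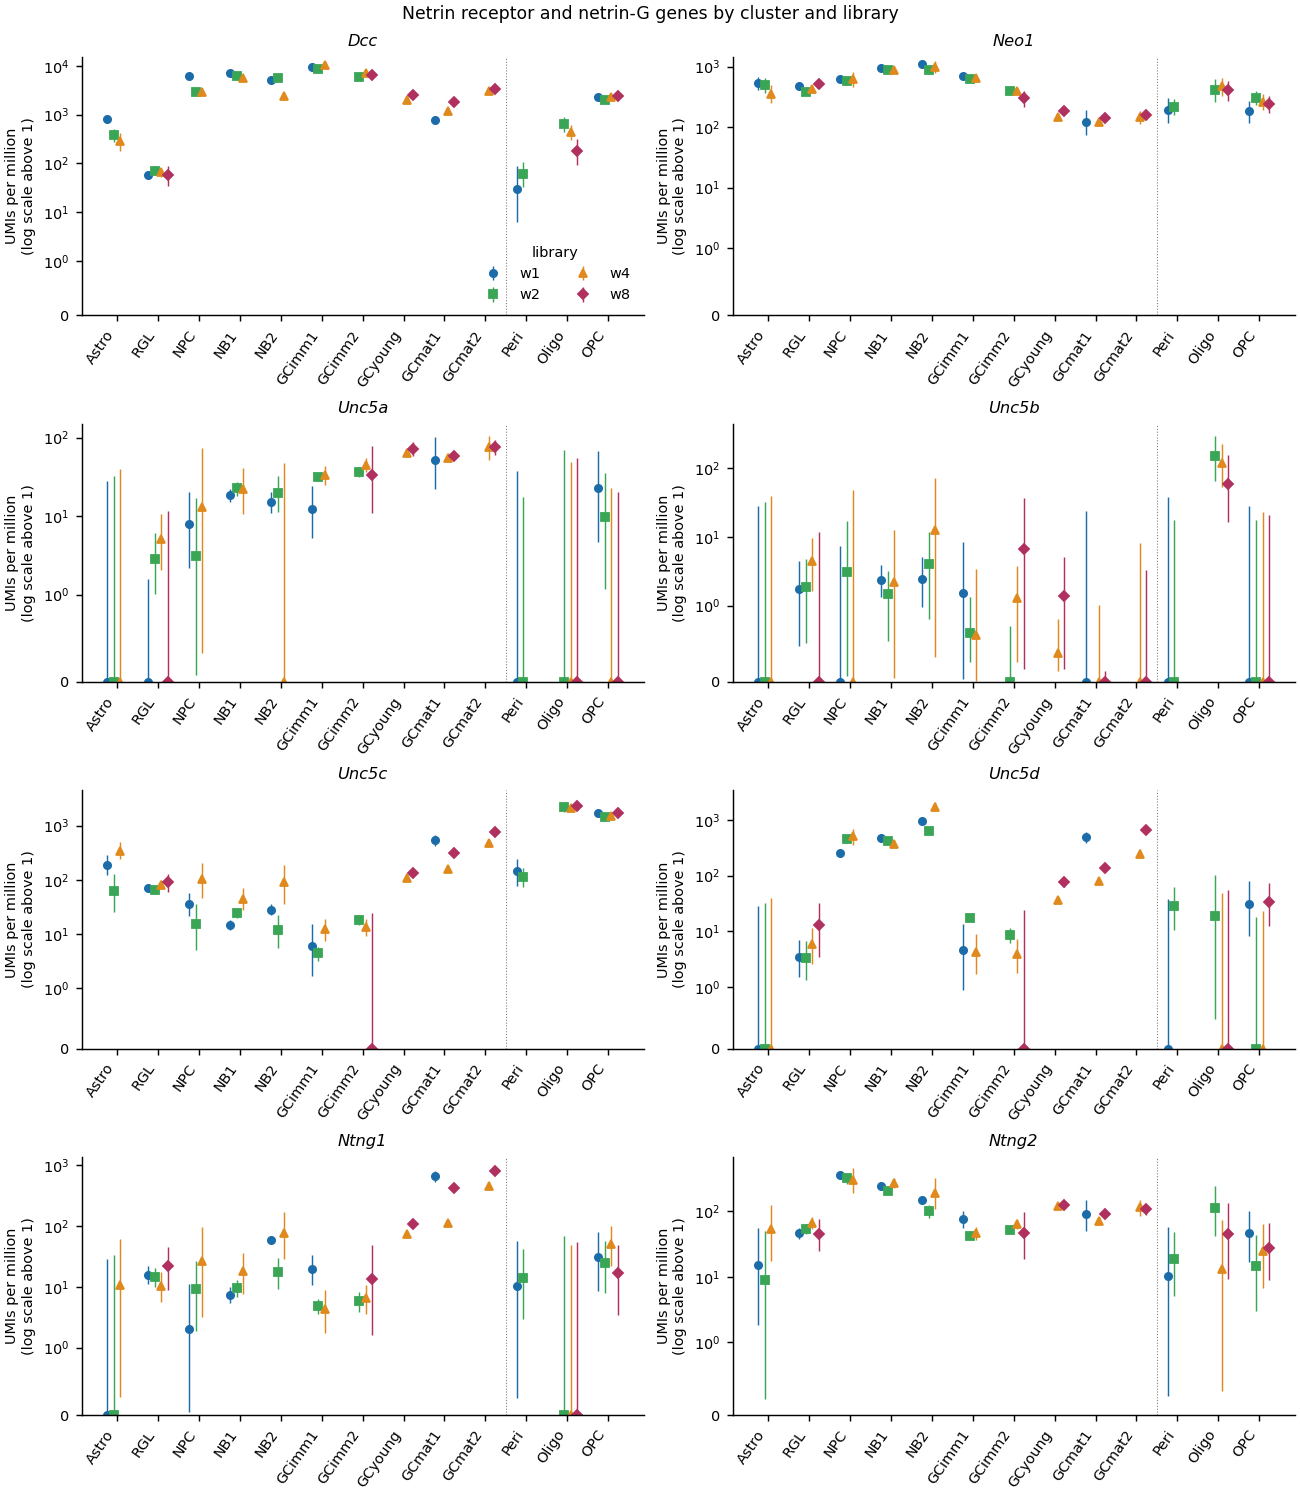
CPM of each gene (vertical axes, logarithmic above 1) in each cluster (horizontal axes), 1 point per library with at least 10 nuclei of the cluster. Bars show the 95% counting interval. Astro, at the left end, and the clusters right of the dotted line are off the neurogenic path. Dcc jumps from 57.4 to 70.0 in RGL to 2874 or more in NPC. Unc5c, Unc5d and Ntng1 are low in GCimm1 and GCimm2 and higher from GCyoung to GCmat2. Unc5d is also low in RGL, and Ntng1 in RGL, NPC and NB1.

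A gene was called changed between 2 clusters at a fold of at least 1.5 and an adjusted p of at most 0.05 (edgeR quasi-likelihood test, Benjamini-Hochberg adjustment over all genes tested). Over 10 comparisons the 7 tested genes gave 36 calls in 70, 22 higher and 14 lower in the second-named cluster. The genes were chosen with earlier results of these data known. The study had already named Unc5d as higher in NB2 than in NB1, and Ntng1 as a marker of GCmat1. The share of all genes beside each count is therefore a description and no test of the set. From Astro to RGL 2 of 7 were called, where 9.58% of all genes tested were. From RGL to NPC it was 4 of 7 against 29.5%, and from NPC to NB1 3 of 7 against 29.3%. Between the neuroblast clusters, NB1 to NB2, 3 of 7 were called against 2.94%. On entry to the immature granule cells 3 of 7 were called from NB1 to GCimm1 against 12.5%, and 5 of 7 from NB2 to GCimm1 against 7.59%. From GCimm1 to GCimm2 it was 2 of 7 against 9.43%. From GCimm2 to GCyoung all 7 tested genes were called, 5 higher and 2 lower, against 18.9%. The last steps had 3 of 7 against 3.85% from GCyoung to GCmat1 and 4 of 7 against 7.3% from GCmat1 to GCmat2. The median log2 fold change of the 7 genes was 1.46 from RGL to NPC (all genes -0.05), 0.69 from NPC to NB1 (0.06), 0.09 from NB1 to NB2 (-0.04), -0.35 from NB1 to GCimm1 (-0.01) and -1.31 from NB2 to GCimm1 (0.04). Later it was 0.35 from GCimm1 to GCimm2 (-0.02), 1.19 from GCimm2 to GCyoung (0.03), -0.15 from GCyoung to GCmat1 (-0.0049) and 1.10 from GCmat1 to GCmat2 (-0.14). None is given from Astro to RGL, where Astro held at most 1 UMI of 3 of the genes. Calls were lost in every comparison under 1 or more alternatives, and most are named with each gene. With DESeq2 as the tool, none of the 7 was called from GCyoung to GCmat1 and 1 from GCmat1 to GCmat2, and with no library term 1 was called from GCmat1 to GCmat2.

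**Figure D2:**
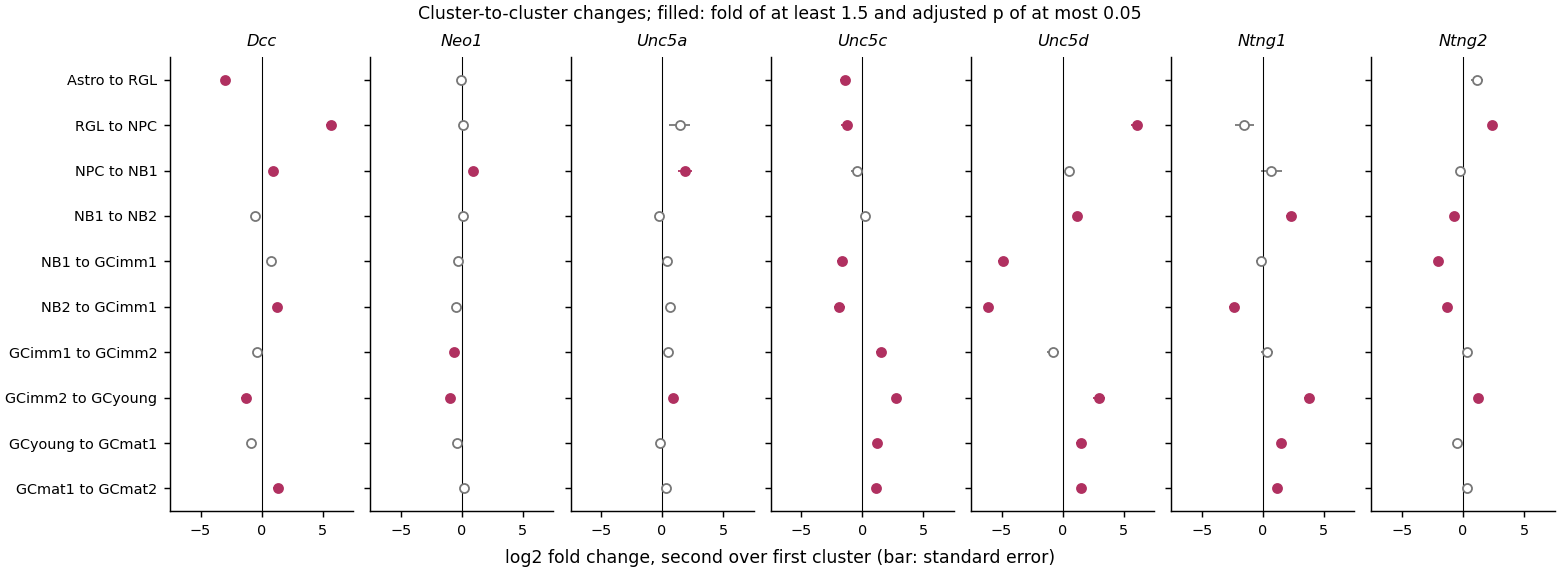
Log2 fold change of the second-named over the first-named cluster (horizontal axes) for the 7 tested genes in 10 comparisons (rows). Bars show the standard error, and filled points passed the fold of 1.5 and the adjusted p of 0.05. Values of Unc5a, Unc5d and Ntng1 from Astro to RGL are left out, since Astro held at most 1 UMI of each. From GCimm2 to GCyoung all 7 points are filled.

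Dcc, the attractive netrin receptor, was low in stem cells and high from progenitors to immature granule cells when whole clusters are compared. In Astro it stood at 804, 383 and 282 CPM in w1, w2 and w4, and in RGL at 57.8, 70.0, 65.5 and 57.4 in w1, w2, w4 and w8. Every Astro library was above every RGL library, and Dcc was 0.127 times as high in RGL (log2 fold change -2.98 ± 0.38 SE, edgeR adjusted p = 2e-08). The share of nuclei with a Dcc UMI was 17.1% in RGL at a median of 4091 UMIs per nucleus, and 21.7% in Peri at 5108, 46.7% in Oligo at 4801 and 52.2% in Astro at 4670. After thinning to 2000 UMIs these were 9.84%, 13.3%, 35.6% and 34.3%. In NPC Dcc reached 6190, 2874 and 2897 in w1, w2 and w4, and the rise from RGL was 50.2-fold (5.65 ± 0.35, edgeR adjusted p = 7.1e-19), which held under all alternatives. NB1 held 6969, 6068 and 5749 in w1, w2 and w4, 1.92-fold above NPC (0.94 ± 0.31, edgeR adjusted p = 0.016). That step overlapped between the libraries of the clusters, and edgeR adjusted p was 0.18 without w2, 0.081 without w4 and 0.063 with no library term, and the adjusted p of DESeq2 was 0.055.

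NB2 held less Dcc than NB1 in each library, at 5218, 5663 and 2383 in w1, w2 and w4, but this did not pass the test (-0.51 ± 0.31, edgeR adjusted p = 0.61). GCimm1 held the highest levels, 9247, 8711 and 10238 in w1, w2 and w4, and all 2442 of its nuclei had a UMI of Dcc, 48.4 UMIs per nucleus on average. The step from NB2 was 2.37-fold (1.25 ± 0.31, edgeR adjusted p = 0.0046), though without w4, which has 18 NB2 nuclei, it was 0.78 with adjusted p = 0.26. GCimm2 stood at 6003, 7069 and 6615 in w2, w4 and w8, and GCyoung at 1946 and 2526 in w4 and w8. Dcc was lower in both libraries in GCyoung, at 0.405 times the GCimm2 level (-1.31 ± 0.36, edgeR adjusted p = 0.0061). Without w4 the step rests on w8, with 28 GCimm2 nuclei, and was -1.38 with edgeR adjusted p = 0.11. In GCmat1 the level was 775, 1183 and 1842 in w1, w4 and w8, and in GCmat2 3061 and 3319 in w4 and w8, a rise of 2.48-fold (1.31 ± 0.34, edgeR adjusted p = 0.0071) that without w4 was 1.21 with adjusted p = 0.099. OPC, at 2019 to 2428 in the 4 libraries, lay between GCmat1 and GCmat2.

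Neo1, the receptor of netrins and repulsive guidance molecules, was detected at every stage. It stood at 529, 489 and 358 CPM in Astro in w1, w2 and w4, and at 383 to 520 in the 4 RGL libraries, ranges that overlapped. NPC held 619, 576 and 616 in w1, w2 and w4, and NB1 951, 895 and 892. Every NB1 library was above every NPC library, by 1.84-fold in the model (0.88 ± 0.19, edgeR adjusted p = 0.00022), a call that held under all alternatives. NB2 was at 1121, 872 and 999, overlapping NB1. From there each later stage up to GCyoung held less Neo1, with 699, 625 and 641 in GCimm1 in w1, w2 and w4, 390, 392 and 299.8 in GCimm2 in w2, w4 and w8, and 149 and 188 in GCyoung in w4 and w8. The step to GCimm2 passed the test at 0.641 times (-0.64 ± 0.18, edgeR adjusted p = 0.014) and that to GCyoung at 0.523 times (-0.94 ± 0.22, edgeR adjusted p = 0.0008). The first was lost without w2, w4 or w8 (-0.76, -0.73 and -0.49, edgeR adjusted p = 0.14, 0.12 and 0.1), and the second without w4 (-0.81, edgeR adjusted p = 0.33). GCmat1 and GCmat2 stayed between 121 and 156 in all libraries, with no call after GCyoung.

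Unc5a, a repulsive netrin receptor, was scarce in stem cells and higher in granule cells. It had no UMI in 67 Astro nuclei, where a limit of 3 nuclei is 4.48% of nuclei with a UMI, and 13 UMIs in 1387 RGL nuclei, so no fold is given between them. In RGL it stood at 2.82 and 5.15 CPM in w2 and w4 and at 0 in w1 and w8, and in NPC at 8.02, 3.08 and 13.1 in w1, w2 and w4. NB1 held 18.5, 22.5 and 22.4, above NPC in every library and 3.63-fold higher in the model (1.86 ± 0.56, edgeR adjusted p = 0.0082), though NPC held 6 UMIs in all and without w2 the value was 1.37 with adjusted p = 0.15. NB2 was at 14.97 and 19.9 in w1 and w2 with no UMI in the 18 nuclei of w4, and GCimm1 at 12.2, 31.1 and 33.2 in w1, w2 and w4. GCimm2 held 36.7, 44.9 and 33.3 in w2, w4 and w8, and GCyoung 63.0 and 71.8 in w4 and w8. Both libraries rose, by 1.84-fold in the model (0.88 ± 0.22, edgeR adjusted p = 0.0022), and the value was 1.29 with adjusted p = 0.18 without w4 and 0.61 with adjusted p = 0.071 in nuclei thinned to 2000 UMIs. GCmat1 at 51.2, 55.7 and 58.0 and GCmat2 at 75.2 and 75.8 did not differ past the threshold from the cluster before. The share of nuclei with a UMI was 37.8% in GCmat1 at a median of 8138 UMIs and 7.80% in NB1 at 4057.5, and 10.7% and 4.34% after thinning to 2000 UMIs, against 0 of 45 in Oligo at 4801.

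Unc5b, a repulsive receptor best known from blood vessels, was nearly silent on the path. NB1 held 22 UMIs in 2578 nuclei and RGL 14 in 1387, or 2.02 and 2.30 CPM. NB2 had the highest level, 2.97 with 11 UMIs, and GCmat1 had none in 3356 nuclei, where a limit of 3 nuclei is 0.0894% of nuclei with a UMI. These limits bear on UMIs found, not on nuclei that express the gene. Off the path, Oligo held 24 UMIs in 18 of 45 nuclei, 150, 118 and 59.9 CPM in w2, w4 and w8. Endothelial markers, the list of a cell type known for Unc5b, summed to at most 50.4 CPM in any cluster, and 0 in Oligo.

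Unc5c, a repulsive netrin receptor first known from cerebellar migration, was lowest in GCimm1 and higher in the clusters after it. Astro held 192, 62.3 and 347 CPM in w1, w2 and w4, RGL 63.9 to 89.2 in the 4 libraries, and NPC 36.1, 15.4 and 105 in w1, w2 and w4. RGL lay below Astro (-1.45 ± 0.39, edgeR adjusted p = 0.0081) and NPC below RGL (-1.28 ± 0.44, edgeR adjusted p = 0.021), each in 2 of 3 libraries. The first was -0.84 with edgeR adjusted p = 0.2 without w4, -1.25 with 0.058 after thinning, and -1.49 with adjusted p = 0.083 in DESeq2. For the second the values were -1.20 with edgeR adjusted p = 0.14 without w1, -0.87 with 0.2 without w2, and -1.11 with adjusted p = 0.17 in DESeq2. NB1 stood at 14.8, 24.5 and 44.8 and NB2 at 28.2, 11.95 and 89.7, and GCimm1 at 6.11, 4.39 and 12.3, below both neuroblast clusters in every library. GCimm1 was 0.321 times NB1 (-1.64 ± 0.40, edgeR adjusted p = 0.0018) and 0.271 times NB2 (-1.88 ± 0.46, edgeR adjusted p = 0.0038). Without w2 these were -0.89 (edgeR adjusted p = 0.46) and -1.65 (0.072), and without w1 the step from NB2 was -1.68 (0.2).

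From its low point Unc5c rose in every later comparison. GCimm2 held 18.4 and 13.4 CPM in w2 and w4, with no UMI in the 28 nuclei of w8, and GCyoung held 107 and 136 in w4 and w8. The first step was 2.90-fold (1.54 ± 0.42, edgeR adjusted p = 0.0084) but 0.31 with adjusted p = 0.95 without w2, and 0.99 with adjusted p = 0.31 after thinning. The second was 6.73-fold (2.75 ± 0.34, edgeR adjusted p = 7.6e-09) and held under all alternatives. GCmat1 stood at 157 and 311 in w4 and w8, and GCmat2 at 477 and 764, higher in both libraries at both steps. In the model, which also took in the GCmat1 sum of w1, the steps were 1.18 ± 0.26 and 1.10 ± 0.26 (edgeR adjusted p = 0.0024 and 0.0028). Without w8 these were 1.05 and 1.00 with edgeR adjusted p = 0.13 and 0.16. The 17 GCmat1 nuclei of w1 held 538. With thinning to 2000 UMIs the share of nuclei with a UMI was 1.23% in GCimm1, 34.5% in GCmat1 and 64.1% in GCmat2, and unthinned it was 2.17%, 63.3% and 87.6% at medians of 5045.5, 8138 and 7254 UMIs.

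The highest Unc5c levels lay off the path, at 2157, 2090 and 2277 CPM in Oligo in w2, w4 and w8, and 1440 to 1733 in the 4 OPC libraries. The myelin genes Mag and Mog stood at 883 and 1999 CPM in Oligo beside 2085 of Unc5c, at 1.97 and 21.2 in GCimm1 beside 5.44 of Unc5c, and at 0.343 and 0.685 in GCmat1 beside 295 of Unc5c. In GCmat2 Mag was at 1.92 and Mog at 0 beside 681 of Unc5c. Mbp, a myelin gene with more RNA, was at 6296 in Oligo, 50.03 in GCimm1, 68.3 in GCmat1 and 102 in GCmat2. The precursor list (Pdgfra, Cspg4 and Prkg2) stood at 1.61 in GCmat1 and at 0 in GCmat2.

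Unc5d, a repulsive receptor that also binds FLRT proteins, had 2 separate phases. It had no UMI in Astro and 3.29 to 12.7 CPM in the 4 RGL libraries, then 255, 450 and 511 in NPC in w1, w2 and w4. All NPC libraries were above all RGL libraries, by 67.6-fold in the model (6.08 ± 0.45, edgeR adjusted p = 6.2e-16), under all alternatives. NB1 held 483, 425 and 374, and NB2 949, 629 and 1755, again with no overlap and 2.26-fold higher in NB2 (1.18 ± 0.28, edgeR adjusted p = 0.0056). That call was lost with DESeq2 (adjusted p = 0.56) and with no library term (edgeR adjusted p = 0.12). In GCimm1 only 4.58, 17.5 and 4.31 remained, 0.0335 times NB1 (-4.90 ± 0.35, edgeR adjusted p = 1.1e-15) and 0.0148 times NB2 (-6.08 ± 0.37, edgeR adjusted p = 1.8e-18), both under all alternatives. The share of nuclei with a UMI was 56.9% in NB2, 25.1% in NB1 and 4.55% in GCimm1, or 46.4%, 20.6% and 2.22% after thinning to 2000 UMIs. In Oligo it was 2.22%, at a median of 4801 UMIs against 4961 in NB2. Nuclei with a UMI held 8.08 on average in NB2, 7.70 in NB1 and 1.81 in GCimm1, and single NB1 and NB2 nuclei reached 80 and 81.

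The second phase of Unc5d ran from GCyoung to GCmat1, with a still higher level in GCmat2. GCimm2 held 8.58 and 3.88 CPM in w2 and w4 and no UMI in w8, and GCyoung 36.0 and 76.7 in w4 and w8, 8.04-fold higher (3.01 ± 0.48, edgeR adjusted p = 2.6e-06) under all alternatives. GCmat1 stood at 79.0 and 137 in w4 and w8 and GCmat2 at 248 and 669, rising at each step in both libraries. In the model, which also took in the GCmat1 sum of w1, the steps were 1.48 ± 0.34 and 1.53 ± 0.34 (edgeR adjusted p = 0.0041 and 0.0013). Without w4 the step to GCmat1 was 1.05 (edgeR adjusted p = 0.2), and without w8 the step to GCmat2 was 0.73 (edgeR adjusted p = 0.68). The 17 GCmat1 nuclei of w1 held 487. NB2 and GCmat2 overlapped over libraries and were next to each other in the order of levels.

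Ntng1, which encodes netrin-G1, was scarce up to GCimm2, apart from NB2, and highest in mature granule cells. RGL held 10.3 to 22.3 CPM, NPC 2.00, 9.24 and 26.2 in w1, w2 and w4, and NB1 7.39, 9.54 and 17.9. NB2 held 59.2, 17.3 and 76.9, higher than NB1 in each library, by 4.85-fold in the model (2.28 ± 0.36, edgeR adjusted p = 1.1e-05). Most NB2 UMIs came from w1, and without it the value was 1.15 with edgeR adjusted p = 0.67. GCimm1 was back at 19.8, 4.75 and 4.31, 0.190 times NB2 (-2.40 ± 0.40, edgeR adjusted p = 1.1e-05) under all alternatives. The share of nuclei with a UMI was 10.2% in NB2 and 2.21% in GCimm1, and 0 of 45 in Oligo, where a limit of 3 nuclei is 6.67%. From GCimm2 to GCyoung the level went from 6.47 to 74.2 in w4 and from 13.3 to 108 in w8, a rise (3.77 ± 0.38, edgeR adjusted p = 2.1e-11) kept under all alternatives. GCmat1 held 112 and 427 and GCmat2 462 and 811 in w4 and w8, the first step at 2.85-fold (1.51 ± 0.24, edgeR adjusted p = 1.6e-05) and the second at 2.20-fold (1.14 ± 0.24, edgeR adjusted p = 0.0005). Without w8 the step to GCmat1 was 0.85 (edgeR adjusted p = 0.065), and without w4 that to GCmat2 was 0.79 (edgeR adjusted p = 0.12). The 17 GCmat1 nuclei of w1 stood at 653, above both later libraries.

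Ntng2, which encodes netrin-G2, was highest in NPC when whole clusters on the path are compared. RGL held 44.6 to 66.3 CPM and NPC 361, 320 and 301 in w1, w2 and w4, a rise of 5.14-fold with no overlap (2.36 ± 0.19, edgeR adjusted p = 2.4e-15). NB1 stood at 240, 202 and 273 and NB2 at 150, 99.6 and 192, lower in each library at 0.585 times (-0.77 ± 0.17, edgeR adjusted p = 0.0026), a step of -0.67 with adjusted p = 0.2 without w2. GCimm1, at 74.8, 42.1 and 46.2, was 0.236 times NB1 (-2.08 ± 0.17, edgeR adjusted p = 1.6e-14) and 0.404 times NB2 (-1.31 ± 0.19, edgeR adjusted p = 7.5e-07). GCimm2 held 51.1, 63.9 and 46.6 in w2, w4 and w8, and GCyoung 118 and 125 in w4 and w8, 2.28-fold higher (1.19 ± 0.20, edgeR adjusted p = 3.8e-06). The rise to NPC, both falls to GCimm1 and the rise to GCyoung held under all alternatives. GCmat1 at 71.5 and 91.9 was below GCyoung in both libraries without passing the test (-0.52 ± 0.17, edgeR adjusted p = 0.091). GCmat2 stood at 115 and 107.

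The deposited pseudo-time, a coordinate fitted by the authors to the expression of 13635 of these nuclei, gave finer courses. Since it was built from the same nuclei, levels along it are a description with no test. In bins of 2 units, Dcc stood at 65.6 CPM at 0 to 2 and 221 at 2 to 4. It was 1520 at 6 to 8 and 8157 at 8 to 10. After a dip to 4830 at 10 to 12 it peaked at 9303 at 16 to 18. Over all clusters Dcc stood at 1321 at 28 to 30 and 1850 at 30 to 32. Within NPC alone Dcc was at 695 in the 76 nuclei at 6 to 8 and 7217 in the 129 at 8 to 10. The NPC values at 6 to 8 were 928, 509 and 244 in w1, w2 and w4. At 8 to 10 they were 9318, 4260 and 5705. Neo1 peaked at 1182 at 10 to 12, and Ntng2 at 502 at 8 to 10 with a low point of 38.2 at 18 to 20. At 8 to 10 Ntng2 was higher in NB1 than in NPC, at 659 against 386. In w1 it was 759 against 448, and in w2 513 against 288. Unc5a stood at 2.08 at 0 to 2, and the bins at 2 to 4 and 6 to 8 held only 1 and 2 UMIs of it. From 13.1 at 8 to 10 Unc5a climbed in each bin to 42.5 at 20 to 22, and reached 68.5 at 24 to 26. It then stood at 63.3, 57.7 and 56.0 in the last 3 bins. Ntng1 had a small peak of 33.5 at 10 to 12 and its late rise from 43.4 at 24 to 26 to 492 at 30 to 32. Unc5c was lowest at 18 to 20, at 4.81, and highest in the last bin, at 351.

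**Figure D3:**
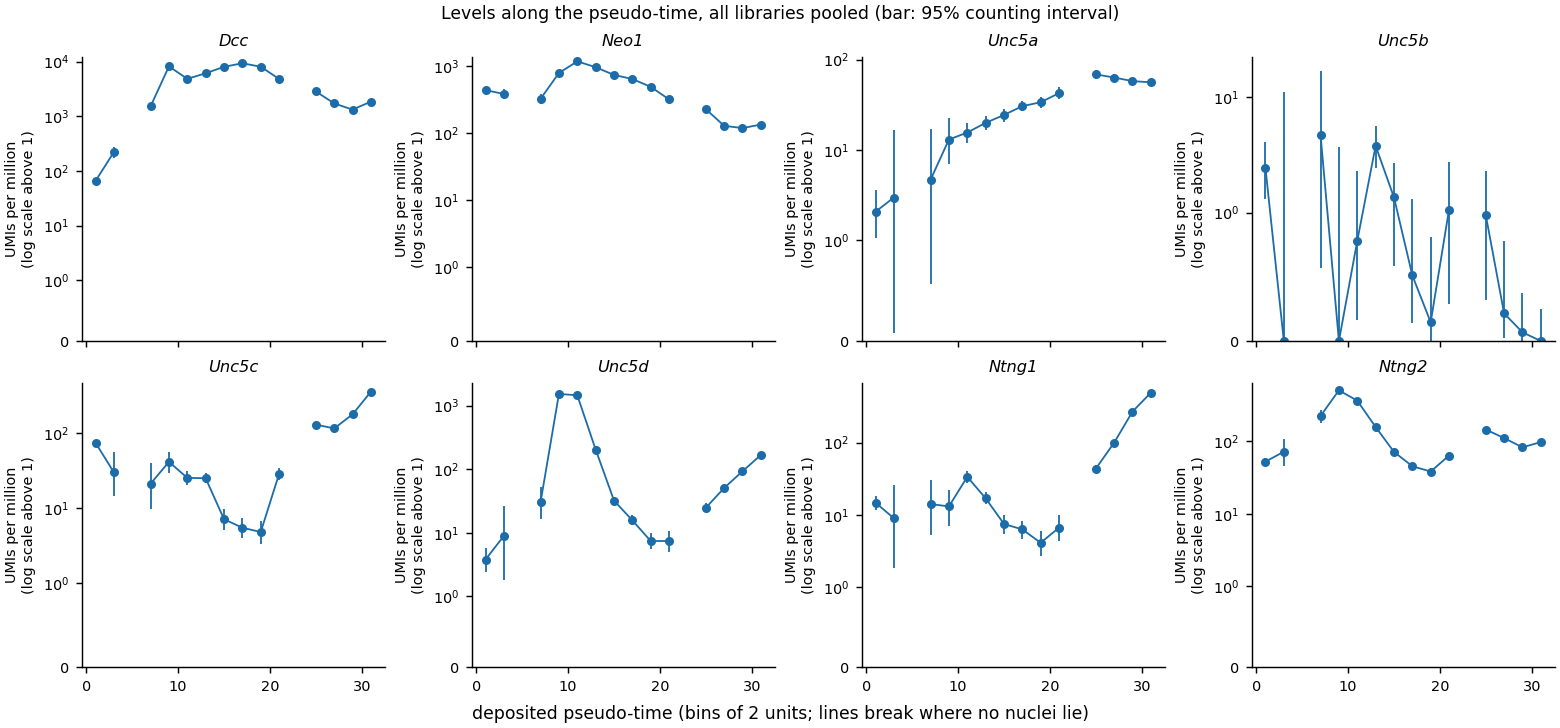
CPM of each gene (vertical axes, logarithmic above 1) against the deposited pseudo-time in bins of 2 units (horizontal axes), all libraries pooled, with 95% counting intervals. Unc5d peaks at 1531 at 8 to 10 and is down to 7.44 at 18 to 20, while Dcc stays at 4809 or above from 8 to 22.

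Unc5d moved within a narrow stretch of pseudo-time. It stood at 30.5 CPM at 6 to 8, 1531 at 8 to 10 and 1457 at 10 to 12, then at 204, 32.2 and 15.7 in the next 3 bins. In NPC alone Unc5d was at 15.4 at 6 to 8 and 551 at 8 to 10, where NB1 held 2492. Within NB1 alone, after 80.5 in the 16 nuclei at 6 to 8, it went from 2492 at 8 to 10 to 1220 at 10 to 12, 50.9 at 12 to 14 and 12.8 at 14 to 16, and the share of nuclei with a UMI from 91.7% to 61.5%, 8.60% and 2.96%. The same order held in separate libraries, with 2712, 1183, 46.0 and 5.93 in w1 and 2149, 1389, 52.4 and 18.8 in w2. In w4 the 3 bins from 10 to 16 held 620, 113 and 14.2. NB2 nuclei kept more Unc5d at like pseudo-time, with 2358, 608 and 102 over the bins from 10 to 16, or 1.93, 11.9 and 8.01 times NB1. In w1 those ratios were 2.11, 13.6 and 13.6, and in w2 1.27, 6.77 and 6.95, and the counting intervals of NB1 and NB2 were apart in each. Ntng1 in NB2 was 5.46 and 8.71 times NB1 in the bins at 10 to 12 and 12 to 14, but at 10 to 12 the ratio was 7.69 in w1 and 0.994 in w2. Dcc within NB1 went from 9332 at 8 to 10 to 5137 at 10 to 12, lower along with Unc5d, and then to 6515 and 8040 where Unc5d was lower still. Dcc in NB2 was 0.712, 0.770 and 0.832 times NB1 in the same bins over all libraries, and 0.645, 0.724 and 0.821 times in w1. In w2 the ratios were 0.976, 1.08 and 0.833, and the counting intervals overlapped in the first and second of these bins.

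**Figure D4:**
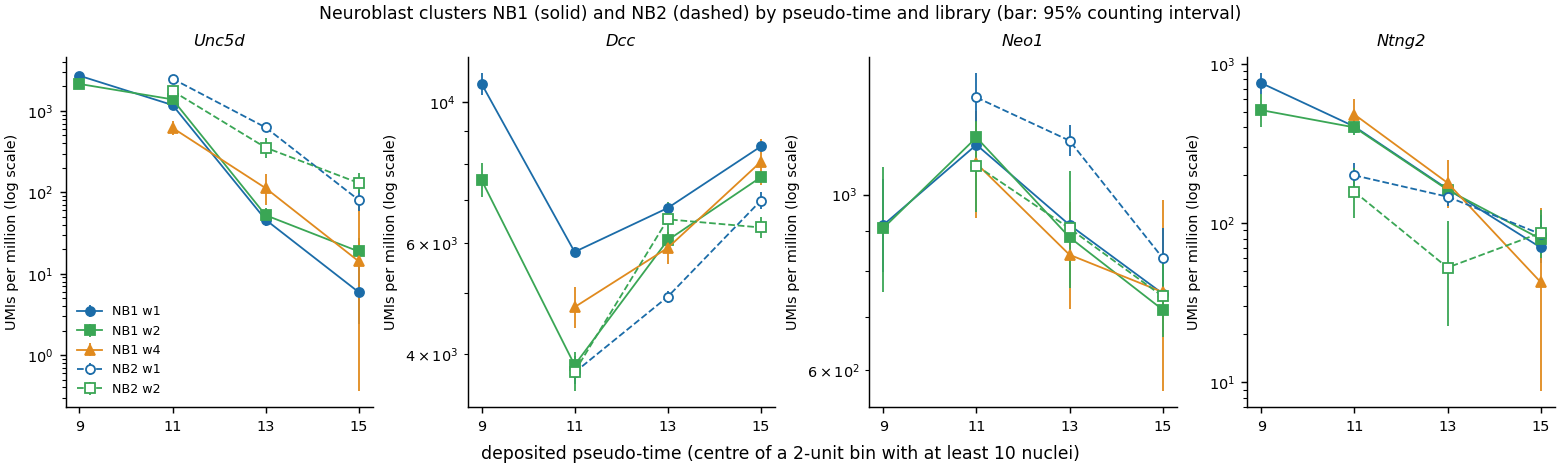
CPM (vertical axes, logarithmic) of Unc5d, Dcc, Neo1 and Ntng2 in NB1 (solid, filled) and NB2 (dashed, open) against pseudo-time in 2-unit bins with at least 10 nuclei, by library, with 95% counting intervals. Unc5d falls in NB1 from 2712 to 5.93 in w1 and from 2149 to 18.8 in w2, and NB2 lies above NB1 of the same library in the 3 shared bins.

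A part of GCmat1 carried no pseudo-time. The study left out GCmat1 nuclei with signal of ventral hippocampal genes, and 220 of the 3356 GCmat1 nuclei had no deposited value, 216 of them in w8. That is fewer than the methods give as left out, for a reason not given in the sources used here, so the 220 are described only as nuclei without a pseudo-time. With 1 library holding at least 10 nuclei of each kind, no test was made, and the values compare nuclei of w8 alone. Dcc stood at 3276 CPM in the 216 nuclei and 1692 in the other 2711, and Neo1 at 252 and 131, 1.94 and 1.92 times as high. Unc5c was 1.29 times as high, at 391 and 302. Ntng1 stood at 121 against 459 and Unc5d at 43.8 against 146, or 0.264 and 0.299 times. Counting intervals were apart for these 5 genes and overlapped for Unc5a at 65.9 and 57.2 and Ntng2 at 96.7 and 91.4. Unc5b had no UMI in either.

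**Figure D5:**
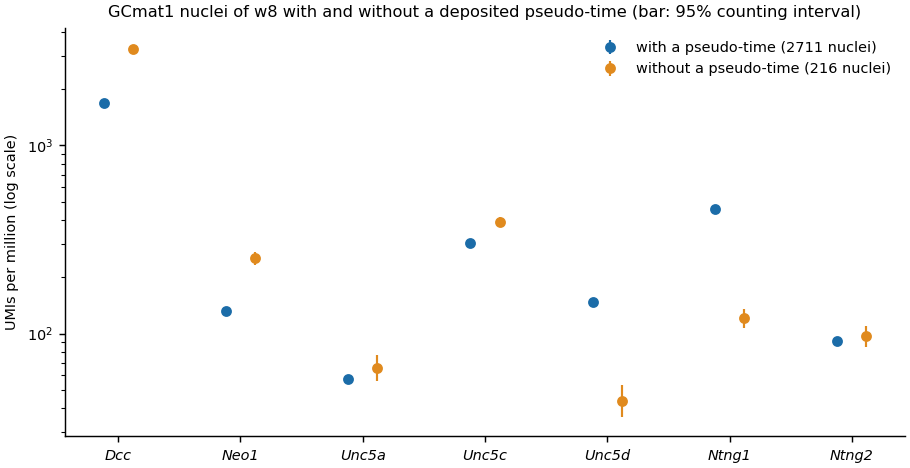
CPM (vertical axis, logarithmic) of the 7 detected genes in GCmat1 nuclei of library w8 with a pseudo-time (2711 nuclei) and without (216 nuclei), bars for 95% counting intervals. Dcc and Neo1 are higher and Unc5d and Ntng1 lower in the nuclei without.

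Genes around the receptors were read from fixed lists. Of 9 ligands, 7 were tested, and 5 of them were called from RGL to NPC (3 higher, 2 lower), where 29.5% of all genes were, with a list median log2 fold change of 0.72 against -0.05 for all genes. From NPC to NB1 6 were called, 5 of them lower, where 29.3% of all genes were, with a median of -1.36 against 0.06. Draxin, a secreted DCC ligand, rose from 15.9 CPM in RGL to 212 in NPC (3.44 ± 0.24, edgeR adjusted p = 6.8e-17) and fell to 121 in NB1, 40.3 in GCimm1, 17.0 in GCimm2 and 0.693 in GCyoung, each of these steps called. Ntn1, which encodes netrin-1 itself, was at 48.2 in NPC and 4.22 in NB1 (-3.16 ± 0.47, edgeR adjusted p = 2.3e-07), and at most 0.983 from GCimm1 on. The neogenin ligand Rgma was at 130 in NPC and 2.29 in NB1 (-5.59 ± 0.34, edgeR adjusted p = 3.1e-19). Flrt2, a partner of UNC5 proteins, rose from 1.87 in GCimm2 to 15.2 in GCyoung (3.45 ± 0.47, edgeR adjusted p = 6.6e-08) and 37.8 in GCmat1 (0.93 ± 0.26, edgeR adjusted p = 0.026). Flrt3 rose from 32.8 in NPC to 95.9 in NB1 (1.74 ± 0.28, edgeR adjusted p = 1.1e-06). OPC held the most Ntn1, 302 CPM.

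Of the netrin-G ligand genes and their relative Lrrc4b, Lrrc4c was called in 7 of 10 comparisons, Lrrc4 in 1 and Lrrc4b in none, where the share of all genes called ran from 2.94% to 29.5%. Lrrc4c, the partner of netrin-G1, fell from 875 CPM in NB1 to 270 in GCimm1 (-1.48 ± 0.19, edgeR adjusted p = 1.1e-08). It rose from 215 in GCimm2 to 397 in GCyoung (0.99 ± 0.21, edgeR adjusted p = 0.00032) and from 478 in GCmat1 to 905 in GCmat2 (0.94 ± 0.21, edgeR adjusted p = 0.001), and was highest in OPC at 8830. Lrrc4, the partner of netrin-G2, lay between 65.6 and 137 on the path and in Astro. Dscam, a netrin co-receptor, rose from 14.3 in RGL to 253 in NPC (3.97 ± 0.26, edgeR adjusted p = 7.5e-18), from 239 in NB1 to 689 in GCimm1 (1.48 ± 0.20, edgeR adjusted p = 3.7e-08) and to 1366 in GCimm2 (1.09 ± 0.20, edgeR adjusted p = 4.5e-05), with no call after that.

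All 22 intracellular partners were tested, and between 0 and 8 were called per comparison, with list medians between -0.09 and 0.21. Called were 5 from Astro to RGL (9.58% of all genes), 5 from RGL to NPC (29.5%) and 8 from NPC to NB1 (29.3%). It was 2 from NB1 to NB2 (2.94%), 3 from NB1 to GCimm1 (12.5%) and 2 from NB2 to GCimm1 (7.59%). Later it was 3 from GCimm1 to GCimm2 (9.43%) and 4 from GCimm2 to GCyoung (18.9%). The last were 1 from GCyoung to GCmat1 (3.85%) and 0 from GCmat1 to GCmat2 (7.3%). The 8 calls from NPC to NB1, 6 higher and 2 lower, included a rise of the exchange factor Trio from 255 to 483 CPM (1.29 ± 0.20, edgeR adjusted p = 7.2e-07). The motor Myo10, which carries DCC into filopodia, fell from 270 to 21.7 (-3.41 ± 0.19, edgeR adjusted p = 1.9e-20). Ablim1, an actin binder, rose from 15.2 in NB1 to 110 in GCimm1 (2.84 ± 0.23, edgeR adjusted p = 3e-14). The DCC-binding ubiquitin ligases went opposite ways from GCimm2 to GCyoung, Trim9 from 160 to 432 (1.53 ± 0.23, edgeR adjusted p = 5.5e-07) and Trim67 from 25.4 to 6.41 (-1.55 ± 0.30, edgeR adjusted p = 6.6e-05).

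By Pearson's r of log2(CPM + 1) over the 29 sums, which share libraries and clusters, the most similar other genes were named for each tested member. They were Elavl3 (0.91), Dcx (0.90) and Prkcb (0.90) for Dcc, Hook3 (0.96), Ttc28 (0.96) and St6gal1 (0.95) for Neo1, and 4732463B04Rik (0.96), Slc16a11 (0.93) and Arhgap15 (0.93) for Unc5a. For Unc5c they were Adcy8 (0.85), Kcnip3 (0.79) and Frmd6 (0.79), and for Unc5d Nrn1 (0.85), Nck2 (0.83) and St3gal5 (0.83). For Ntng1 they were Trpc6 (0.84), Fgf5 (0.83) and Nptn (0.82), and for Ntng2 Ago1 (0.86), Nol4l (0.86) and Rtn3 (0.85). Among them Nck2 is on the list of intracellular partners, and Dcx is a marker of neuroblasts and immature granule cells.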

How the data were processed

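Nuclear RNA of sorted green nuclei of 4 libraries was counted by 10x Genomics 3′ sequencing. The authors aligned reads with STARsolo 2.7.4a to mm10 (GRCm38), counted exonic and intronic UMIs, removed doublets and low-quality nuclei, and left out part of w4 as a possible single outlying male. The deposited count matrices hold raw UMI counts per feature and barcode. In the deposited log2 table the authors divided UMIs by scran size factors and added 1. Of it, only the lines naming each barcode's library, community and slingshot coordinate were read.

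Counts were summed per library and cluster (at least 10 nuclei). Genes passing filterByExpr were tested with edgeR 4.0.16 in R 4.3.3 (TMM, quasi-likelihood, cluster and library terms, 16 residual degrees of freedom), p-values adjusted by Benjamini-Hochberg, and a call needed a fold of 1.5 and an adjusted p of 0.05. Alternatives were RLE factors, no filter, no library term, DESeq2 1.42.0, at least 50 nuclei, thinning to 2000 UMIs (141 shallower nuclei left out) and leaving out each library. Intervals are exact Poisson or Clopper-Pearson at 95%, and a count of 0 was given a limit of 3 counts. Libraries held 13227971 to 28595331 UMIs. Gene spans came from GENCODE M21, in which 45143 of 45706 features matched, and promoters from RefSeq. Ntn3 of the ligand list had no single matching feature. The named genes are the 8 members, the 3 genes most similar to each tested member, and genes of the pathway lists called in a comparison in which a member was called, of which those printed were picked after their values were seen. The members and the lists were chosen with earlier results of these data known. GCmat1 with and without pseudo-time was described without a test, since only w8 held at least 10 nuclei of each. One marker gene and the sums that hold it are not reported here.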

Additional observations from a re-analysis of the deposited data

Results flagged for a closer look

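Ntng1 moved in opposite directions between NB1 and GCimm1 in 2 libraries, each with counting intervals apart. The GCimm1 level was 2.69 times the NB1 level in w1, with 129 GCimm1 nuclei, and 0.498 times in w2, with 1933. In w4 it was also lower, at 4.31 CPM against 17.9. The difference between the libraries was not tested, and Ntng1 did not pass the test for that comparison. RGL and OPC were the only clusters with 4 libraries of at least 10 nuclei. In these no library stood apart from the others in any of the 8 genes. That is 16 sets of 4 values, where chance gives about 1 in 20. Unc5b had no UMI in OPC, so that set could show nothing. Clusters from NPC to GCmat2 were not looked at in this way.

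Barcodes in the count matrices with no deposited cluster carried signal of all 8 genes above the limit of 3 counts. In w4 these are 1628 barcodes with 15789413 UMIs. Unc5c stood there at 1060 UMIs per 1000000 UMIs (CPM) against 120 in the kept nuclei of w4, and Unc5d at 280 against 51.1. Dcc was at 1434 against 2794, Neo1 at 136 against 231, and Ntng1 at 39.1 against 70.8. Ntng2 was at 94.7 against 102, Unc5a at 31.2 against 53.9 and Unc5b at 0.633 against 1.04. In the 1051 such barcodes of w1, w2 and w8 together, Unc5c was at 325 against 168 in the kept nuclei, Unc5b at 5.15 against 1.00 and Dcc at 3709 against 4265. There Unc5d was at 211 against 198, Neo1 at 476 against 455, Ntng1 at 174 against 190, Ntng2 at 104 in both and Unc5a at 29.6 against 37.9. These pooled values hide differences between the libraries. Unc5c was at 282 against 55.9 in w1, 302 against 38.4 in w2 and 389 against 329 in w8. Ntng1 was at 115 against 28.3 in w1 and 36.7 against 11.6 in w2, but at 389 against 415 in w8. Unc5d was at 401 against 455 in w1, 137 against 111 in w2 and 127 against 151 in w8, and Neo1 at 723 against 853, 546 against 596 and 173 against 152. Ntng2 was at 141 against 175 in w1, 96.5 against 77.8 in w2 and 80.5 against 93.0 in w8. The authors left out doublets, low-quality nuclei and part of w4, and which of these a barcode was is not given here, so the source of these values was not tested.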

How the results depend on the processing

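No call of the 7 genes changed direction in 358 refitted values, 307 kept the call and 51 lost it, and 14 of 36 calls held under all alternatives. Clusters were compared within libraries, since library was a term of the model. With 2 or 3 libraries that hold both clusters of a comparison, single libraries decide many calls. The causes below were not tested, apart from fewer sums, nuclei or UMIs where a setting removes them.

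Counts of members called that moved by over 1.5 times were, with DESeq2, 1 from Astro to RGL, 1 from NB1 to NB2, 0 from GCimm1 to GCimm2, 0 from GCyoung to GCmat1 and 1 from GCmat1 to GCmat2. With no library term they were 1 from NB1 to NB2, 1 from GCimm1 to GCimm2 and 1 from GCmat1 to GCmat2. Thinning gave 1 from Astro to RGL and 1 from GCimm1 to GCimm2, sums of at least 50 nuclei 1 from GCimm1 to GCimm2, and no filter on low counts 5 from GCyoung to GCmat1. Leaving out 1 library gave 1 to 2 from Astro to RGL, 1 to 3 from NPC to NB1, 0 to 2 from GCimm1 to GCimm2, 4 to 7 from GCimm2 to GCyoung (4 without w4), 1 to 3 from GCyoung to GCmat1 and 2 to 4 from GCmat1 to GCmat2. The share of all genes called under the same setting is not given beside these counts. A change in the members is therefore not told apart from a change in calling as a whole.

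Counts of all genes called moved, with DESeq2, from 397 to 194 between NB1 and NB2, from 1274 to 813 between GCimm1 and GCimm2 and from 520 to 229 between GCyoung and GCmat1. With no library term NB1 to NB2 gave 189. Thinning gave 852 from Astro to RGL (1295), 2530 from RGL to NPC (3992), 1663 from GCimm2 to GCyoung (2553), 268 from GCyoung to GCmat1 and 473 from GCmat1 to GCmat2 (986). Leaving out 1 library gave 813 to 1453 from Astro to RGL, 2550 to 4063 from NPC to NB1 (3964), 102 to 431 from NB1 to NB2, 780 to 1751 from NB1 to GCimm1 (1691), 542 to 1064 from NB2 to GCimm1 (1026), 410 to 1286 from GCimm1 to GCimm2, 487 to 2618 from GCimm2 to GCyoung, 216 to 539 from GCyoung to GCmat1 and 412 to 1126 from GCmat1 to GCmat2.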
